A study of Homo sapiens with 6 samples.

Results

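The S100 calcium-binding proteins were examined in HCT116 cells, a human colorectal cancer cell line, with and without the histone demethylase LSD1. The genes are S100A2, S100A3, S100A4, S100A6, S100A10, S100A11, S100A13, S100A14, S100A16 and S100P, which are 10 of the 60240 genes in the count table, and all 10 were found through their Ensembl identifiers. Polyadenylated RNA was sequenced in 3 WT and 3 LSD1 KO libraries of HCT116 cells grown in the same medium, and in each group the libraries are numbered 1, 2 and 3. LSD1 KO cells were made by transient CRISPR/Cas9 transfection against exon 1 of LSD1, selected with puromycin and expanded from individual clones. The sources used here do not give how many clones the 3 libraries represent. They describe no puromycin selection or cloning of the WT cells, so these steps and the loss of LSD1 cannot be told apart. The methods speak of biological replicates for the experiments in general, and neither they nor the labels say what separated the libraries of a group, so part of the spread between them may be technical. The 10 genes were chosen by family, with their measured levels and the difference between LSD1 KO and WT in these libraries in view. That difference is therefore described gene by gene with no p-value, and the number of S100 genes called by the fits over all genes is given once beside the share of all genes called.

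S100 proteins are small proteins with EF-hands, the helix-loop-helix folds that bind calcium. Most act as dimers that change shape on binding calcium and then bind other proteins such as annexins and cytoskeletal proteins, and some are released from cells and signal through the receptor AGER. Most of their genes lie in a cluster on the long arm of chromosome 1, next to the epidermal differentiation complex, and several are used as markers of epithelial tumours and of metastasis. S100A10 is the exception among these proteins, because its EF-hands no longer bind calcium and it forms a complex with annexin A2.

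The 9 genes on chromosome 1 lie between 151982915 and 153634361 (GRCh38), and S100P lies on chromosome 4 from 6693878 to 6697170. S100A10 and S100A11 sit at one end of this stretch. The others sit together in the order S100A6, S100A5, S100A4, S100A3, S100A2, S100A16, S100A14 and S100A13, where S100A5 is outside the list. S100A1, also outside the list, lies within the gene model of S100A13 on the opposite strand. All 9 are read from the minus strand. The sequence before the RefSeq start site of 3 of them is shown, because these 3 genes stand for the patterns described below. S100A4 had the groups apart, S100A14 had the lowest ratio of LSD1 KO to WT, and S100A6 had the highest level and followed the replicate number. The 250 bases before the start are given from 5′ to 3′ on the minus strand of GRCh38.p14, at chr1:153545807-153546056 for S100A4, chr1:153616326-153616575 for S100A14 and chr1:153535992-153536241 for S100A6. Capitals mark the E-box CAGGTG on either strand, which zinc-finger repressors of the SNAI and ZEB families can bind, and the TATA box TATAAA on the strand of the gene.
S100A4: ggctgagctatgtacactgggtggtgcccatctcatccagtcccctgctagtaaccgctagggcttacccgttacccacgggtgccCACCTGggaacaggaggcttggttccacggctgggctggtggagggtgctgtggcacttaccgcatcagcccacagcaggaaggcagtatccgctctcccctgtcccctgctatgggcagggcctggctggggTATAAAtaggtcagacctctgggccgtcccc
S100A14: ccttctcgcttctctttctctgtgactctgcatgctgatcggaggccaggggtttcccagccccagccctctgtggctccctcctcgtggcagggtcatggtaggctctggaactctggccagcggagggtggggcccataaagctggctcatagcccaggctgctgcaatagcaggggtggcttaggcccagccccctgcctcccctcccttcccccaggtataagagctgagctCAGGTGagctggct
S100A6: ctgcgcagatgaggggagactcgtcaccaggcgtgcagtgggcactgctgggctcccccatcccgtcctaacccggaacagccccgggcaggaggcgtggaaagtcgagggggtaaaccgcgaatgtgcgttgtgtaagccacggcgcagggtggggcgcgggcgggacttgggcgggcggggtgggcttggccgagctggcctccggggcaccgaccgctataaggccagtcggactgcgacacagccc
In windows that add the 50 bases after the start, S100A4 had an E-box that begins 164 bases before the start and a TATA box 31 bases before it. S100A14 had an E-box 14 bases before its start, and S100A6 had neither motif. Over all 10 genes, RefSeq gave 14 such windows, and 6 windows of 5 genes (S100A2, S100A4, S100A14, S100A16 and S100P) held the E-box. It was found in 20.6% of the 35114 windows of all genes. The TATA box was found in windows of S100A4, S100A13 and S100P and in 7.33% of all windows. The AP-1 motif TGANTCA on either strand was in a window of S100A2 and one of S100A3, against 7.71% of all windows, and the TCF/LEF motif CTTTGAT on either strand was in none of the 14, against 2.62%. These matches are a description of the sequence, and the 4 motifs do not overlap one another in these windows. The windows also differed in CpG content, which was expressed as the observed number of CpG over that predicted from the C and G content. This ratio was 0.866 for S100A6, 0.84 for S100A10, 0.781 for S100A11, and for the 3 starts of S100A13 it was 0.848, 0.375 and 0.429, with the highest at the outermost start. It was 0.293 for S100A4, 0.174 for S100A14, 0.212 for S100A3 and 0.213 for S100P, and the windows of S100A2 and S100A16 lay between 0.118 and 0.338. The median over all windows was 0.579.

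Total counts ranged from 25379279 to 29186963 per library, and the 10 genes held between 0.0653% and 0.173% of them. KDM1A, the gene of LSD1, had 223.1 ± 8.78 CPM in WT (SD, n = 3), where CPM are counts scaled to 1000000 per library with TMM factors, and LSD1 KO had 28.4 ± 1.30 CPM (SD, n = 3). Libraries with the same number deviated together from their group means, with Pearson's r of 0.553, 0.553 and 0.404 across 17672 genes, which are not independent replicates, and the S100 genes are therefore also given with the replicate number as a block. Replicate 2 was the highest WT library for each of the 9 S100 genes tested and the highest LSD1 KO library for 6 of them, so their log2 fold changes are also given without it. Of the colon epithelial markers, EPCAM, KRT8, KRT18, KRT19, CDH1 and CDX2 were read in every library. VIL1 had no more than 0.302 CPM. Of the fibroblast markers, COL1A2, COL3A1, DCN and LUM had at most 3 counts in any library, while COL1A1 was read at 20.4 to 23.9 CPM in WT and 30.1 to 34.0 CPM in LSD1 KO. Of the leukocyte markers, PTPRC had at most 3 counts in any library, CD3E had 0 and CD14 at most 8. CD68, a lysosomal protein abundant in macrophages, was read at 16.1 to 19.6 CPM in WT and 22.1 to 32.6 CPM in LSD1 KO, and LYZ at 0.757 to 1.82 CPM over all libraries. Of the endothelial markers, CDH5 had at most 3 counts and VWF 8 to 33. Of the keratinocyte markers, KRT1 had 0 counts, KRT5 at most 1 and KRT14 at most 8, while KRT10 was read at 16.5 to 33.2 CPM. In bulk RNA, fewer cells with a transcript and less of it per cell cannot be told apart.

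The levels of the S100 genes spanned more than the differences between groups. Per kilobase of the canonical transcript, S100A6, which binds annexins and the ubiquitin-pathway protein CACYBP, had 1047 ± 495 CPM per kb (SD, n = 3) in WT cells. It took between 44.8% and 59.3% of the counts of the 10 genes in each library. S100A10 followed with 198 ± 71.5 CPM per kb, S100A11 with 178 ± 43.4, S100A4 with 114 ± 36.7, S100A16 with 100.0 ± 32.0 and S100A13 with 74.6 ± 23.8 CPM per kb in WT (SD, n = 3 each). S100A14, S100A2 and S100A3 were low, at 12.2 ± 7.24, 4.77 ± 2.08 and 1.85 ± 1.23 CPM per kb in WT. The range of S100A6 over the 6 libraries did not overlap that of S100A10, and the range of S100A13 did not overlap that of S100A14. By contrast, the ranges of S100A10, S100A11 and S100A4 overlapped from one to the next, and S100A10 was above S100A11 in 3 of 6 libraries. S100A16 overlapped S100A13 in range but was higher within each of the 6 libraries. S100P, which is known from placenta and from pancreatic and colorectal tumours, was read with 3 counts in LSD1 KO replicate 1 and with 0 counts in the other 5 libraries. The floor was set at 3 counts, for counting error only. As CPM of the library total, without TMM factors, this floor was 0.103 to 0.118 depending on the library. S100P was at or under this floor in all libraries, and no fold is given for it.

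**Figure D1:**
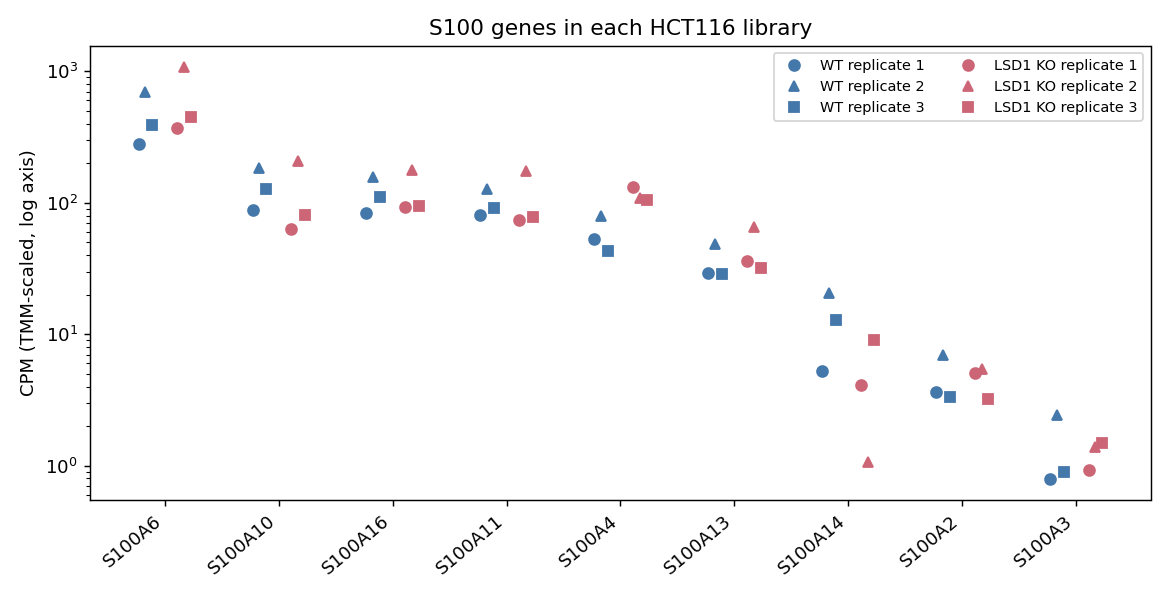
Level of 9 S100 genes in each of the 6 libraries, as TMM-scaled CPM on a log axis, with WT in blue, LSD1 KO in red and the replicate number as the symbol (S100P is not drawn, since it had 0 counts in 5 libraries). S100A6 is the highest gene in each library, S100A4 is the only gene with the red points all above the blue ones, and replicate 2 (triangles) is the highest WT library for each of the 9 genes.

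S100A4, which binds non-muscle myosin IIA (MYH9) and is known for its part in cell motility and metastasis, was higher in LSD1 KO cells. It had 52.8, 79.5 and 43.1 CPM in WT replicates 1, 2 and 3 and 132.3, 108.9 and 104.3 CPM in LSD1 KO replicates 1, 2 and 3. All LSD1 KO libraries were above all WT libraries, and the nearest values were those of WT replicate 2 and LSD1 KO replicate 3. The means were 58.5 ± 18.8 and 115.2 ± 15.0 CPM (SD, n = 3), a ratio of 1.97. The log2 fold change was 0.98 (standard error 0.24) without the replicate block and 1.02 (standard error 0.17) with it. Taken pair by pair, LSD1 KO was above WT by 1.32, 0.45 and 1.27 on the log2 scale for numbers 1, 2 and 3, so that pair 2 had the smallest difference. With any 1 library removed and no block, the value lay between 0.80 and 1.26. It was 1.28 with the block and without both replicate 2 libraries. Among the GENCODE transcripts compared here, no other gene had 31-base sequences in common with S100A4. S100A4 and S100A5 lie next to each other on the same strand. Their RefSeq gene models overlap by 0.064 kb. The counts and the comparison of transcripts used GENCODE transcripts and not these models, and how reads from this overlap were counted was not tested.

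S100A14, an epithelial member of the family, had a lower mean in LSD1 KO cells, but its spread on the log2 scale was the widest among these genes. It had 5.29, 20.6 and 12.9 CPM in WT replicates 1, 2 and 3. In LSD1 KO replicates 1, 2 and 3 it had 4.08, 1.07 and 9.05 CPM, from 114, 29 and 239 counts. The groups overlapped, since LSD1 KO replicate 3 was above WT replicate 1, and replicate 2 was the highest WT library and the lowest LSD1 KO library. The means were 12.9 ± 7.63 and 4.73 ± 4.03 CPM (SD, n = 3), so the LSD1 KO mean was 36.7% of that in WT. The fit gave a log2 fold change of -1.45 (standard error 0.70), and the log2 difference was -0.37, -4.18 and -0.50 in pairs 1, 2 and 3. S100A14 was lower in LSD1 KO in each pair, while the size rested on pair 2, and the log2 fold change was -0.47 with the block and without both replicate 2 libraries. S100A16 and S100A13, its neighbours on the chromosome on either side, had log2 fold changes of 0.06 (standard error 0.32) and 0.33 (standard error 0.32).

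**Figure D2:**
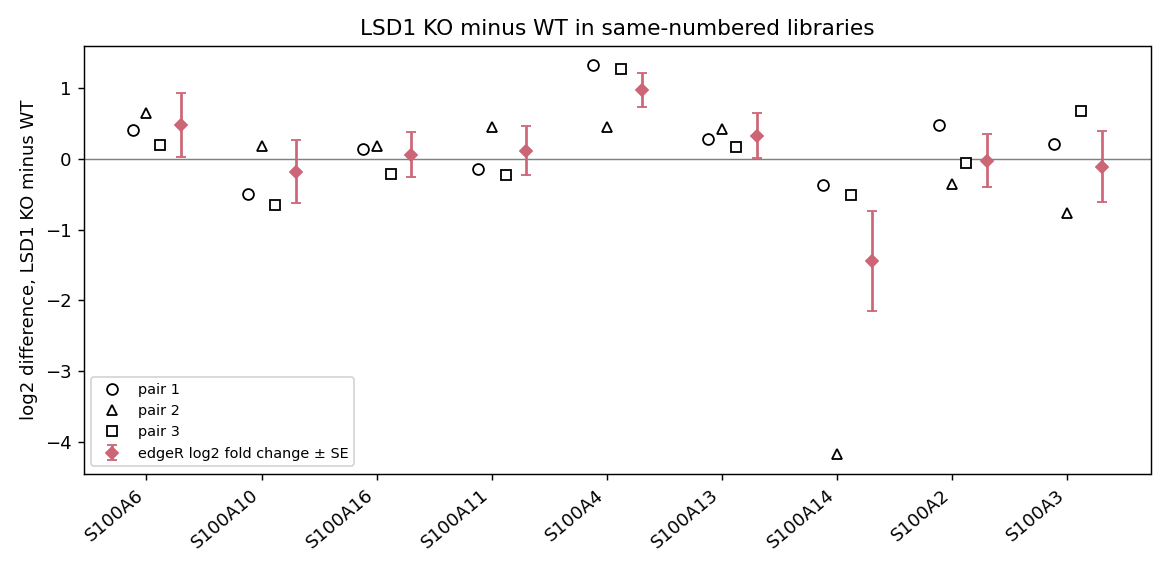
Log2 difference between LSD1 KO and WT for 9 S100 genes, with open symbols for the 3 pairs of same-numbered libraries and red diamonds for the edgeR log2 fold change with its standard error (no replicate block, n = 3 libraries per group). S100A4 is above 0 in each pair, S100A14 is below 0 in each pair with pair 2 at -4.18, and S100A10, S100A11, S100A16, S100A2 and S100A3 have pairs on both sides of 0.

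The other genes differed less between the groups than between libraries of one group. S100A6 had 280.3, 695 and 389 CPM in WT replicates 1, 2 and 3 and 371, 1086 and 446 CPM in LSD1 KO replicates 1, 2 and 3, with the highest value of each group in replicate 2. Its log2 fold change was 0.48 (standard error 0.46), and it was higher in LSD1 KO in each pair, by 0.40, 0.64 and 0.20. S100A13, which takes part in the release of FGF1 from cells, had 29.5, 48.7 and 28.6 CPM in WT and 35.9, 65.7 and 32.2 CPM in LSD1 KO. It was also higher in each pair, by 0.29, 0.43 and 0.17. For S100A6 and S100A13 the groups overlapped, and leaving out LSD1 KO replicate 2 turned both log2 fold changes below 0, to -0.17 and -0.08. Leaving out WT replicate 2 instead raised them to 0.92 and 0.62. All fits with 1 library removed had no replicate block, so here the other replicate 2 library stayed in without its same-numbered counterpart. With the block and without both replicate 2 libraries, the values were 0.28 for S100A6 and 0.21 for S100A13.
S100A10 had 88.4, 184 and 127 CPM in WT and 62.8, 209 and 80.8 CPM in LSD1 KO, so that replicates 1 and 3 were lower in LSD1 KO and replicate 2 was higher. Its log2 fold change was -0.18 (standard error 0.45) without the replicate block and -0.59 with the block and without both replicate 2 libraries. Leaving out any 1 library gave values for S100A10 between -0.91, without LSD1 KO replicate 2, and 0.13, without WT replicate 2. S100A11, which binds annexin A1, had 81.1, 128 and 91.7 CPM in WT and 73.5, 174 and 78.2 CPM in LSD1 KO. Its log2 fold change was 0.12 (standard error 0.34), and between -0.42 and 0.33 with any 1 library removed. S100A16 had 84.1, 158 and 109.8 CPM in WT and 92.4, 179 and 95.1 CPM in LSD1 KO. With any 1 library removed, the log2 fold change lay between -0.34 and 0.33 for S100A16 and between -0.22 and 0.39 for S100A2. S100A10, S100A11 and S100A16 each had at least 1 pair on either side of 0. S100A2, known from basal keratinocytes, had 96, 185 and 101 counts in WT replicates 1, 2 and 3 and 142, 148 and 85 in LSD1 KO, and its log2 fold change was -0.02 (standard error 0.37). S100A3, with 21, 64 and 27 counts in WT replicates 1, 2 and 3 and 26, 38 and 39 in LSD1 KO, was lower still, and its log2 fold change of -0.11 (standard error 0.50) was 0.58 without WT replicate 2.
With the replicate block, the log2 fold change was 0.42 for S100A6 (standard error 0.10), 0.30 for S100A13 (standard error 0.10), -0.32 for S100A10 (standard error 0.15) and -1.48 for S100A14 (standard error 0.64). It was 0.03 for S100A11 (standard error 0.14), 0.04 for S100A16 (standard error 0.10), 0.02 for S100A2 (standard error 0.22) and 0.02 for S100A3 (standard error 0.38). The standard error was smaller with the block for each of the 9 genes tested. When both replicate 2 libraries were also removed, the values were 0.28 for S100A6, 0.21 for S100A13, -0.21 for S100A11, -0.05 for S100A16, 0.20 for S100A2 and 0.47 for S100A3, so that S100A11 and S100A16 lay below 0.

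Of the 10 genes, 9 had enough counts to enter the fit across all genes, and 5 of these had a positive log2 fold change. Their median log2 fold change was 0.06, against 0.00082 over the 17672 genes tested. At a q value under 0.1, edgeR's quasi-likelihood test without the replicate block called 0 of the 9 genes and 1 gene in all, KDM1A (0.00566% of those tested), while S100A4 was the 1 gene of the 9 with an unadjusted p under 0.05, as were 3.12% of all genes. The same test with no filter on low counts called S100A4, against 0.337% of 33857 genes. With the replicate block edgeR called S100A4, against 1.60% of the 17672 genes, and DESeq2's Wald test called S100A4, against 0.376% of 25298 genes. DESeq2 with the block called S100A4 and S100A6 of the 8 S100 genes to which it gave a q value (S100A3 had none), against 4.21% of 14165 genes. With the block and without both replicate 2 libraries edgeR called S100A4 and S100A10, against 5.85% of 18043 genes. S100A4 was also the 1 gene of the 9 whose groups did not overlap, which held for 7.74% of all genes tested. LSD1 KO was higher in each pair for S100A4, S100A6 and S100A13, an order found in 18.8% of genes, and lower in each pair for S100A14, found in 17.5%. Because the genes were chosen with these differences known, nothing is read from the counts. Several cell type markers also moved between the groups. With the replicate block, edgeR called EPCAM as lower (log2 fold change -0.98, q value 0.0788) and COL1A1 as higher (0.52, q value 0.0628). EPCAM was also called by edgeR with no filter on low counts (q value 0.0439) and with the block and without both replicate 2 libraries (-0.66, q value 0.000263), while DESeq2 called it without the block (q value 0.0508) but not with it. DESeq2 with the block called COL1A1 (q value 0.0247), and it called CD68 (0.68, q value 0.0172) and KRT19 (0.45, q value 0.00373) as higher. COL1A1, CD68 and KRT19 were each also called by edgeR with the block and without both replicate 2 libraries. The groups did not overlap for EPCAM, COL1A1 and CD68. KRT18 was not called, but its groups did not overlap either, with LSD1 KO at 70.7% of the mean in WT. The part of these markers in the S100 values was not tested.

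The replicate number was tested separately. It is a label that the rule for the genes does not name, but whether its pattern was known when the genes were chosen is not recorded. In a model with group and replicate number, edgeR's quasi-likelihood test of the replicate number called 6 of the 9 genes at a q value under 0.1, and it called 41.2% of all genes. These were S100A6 (q value 0.00180), S100A13 (0.00355), S100A16 (0.00433), S100A10 (0.00439), S100A11 (0.00788) and S100A2 (0.0755). S100A3, S100A4 and S100A14 were not called, with q values of 0.185, 0.192 and 0.412 from edgeR. All 6 were called with a higher level in replicate 2 than in replicates 1 and 3, as were 22.0% of all genes. Each of them had its highest level in replicate 2 of both groups, and 25.1% of all genes tested had this order. Without both replicate 2 libraries, replicates 1 and 3 still differed for 4 of the 9 genes, against 26.3% of all genes.
Replicate 2 was above the mean of replicates 1 and 3 by 1.07 on the log2 scale in WT and by 1.42 in LSD1 KO for S100A6. For S100A10 this difference was 0.80 and 1.55, and for S100A11 it was 0.57 and 1.20. For S100A4 it was 0.73 in WT and -0.11 in LSD1 KO, and for S100A14 it was 1.31 in WT and -2.43 in LSD1 KO, so that these 2 genes had opposite signs in the groups. That opposite behaviour was not tested, since each group has 1 library with each number.

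**Figure D3:**
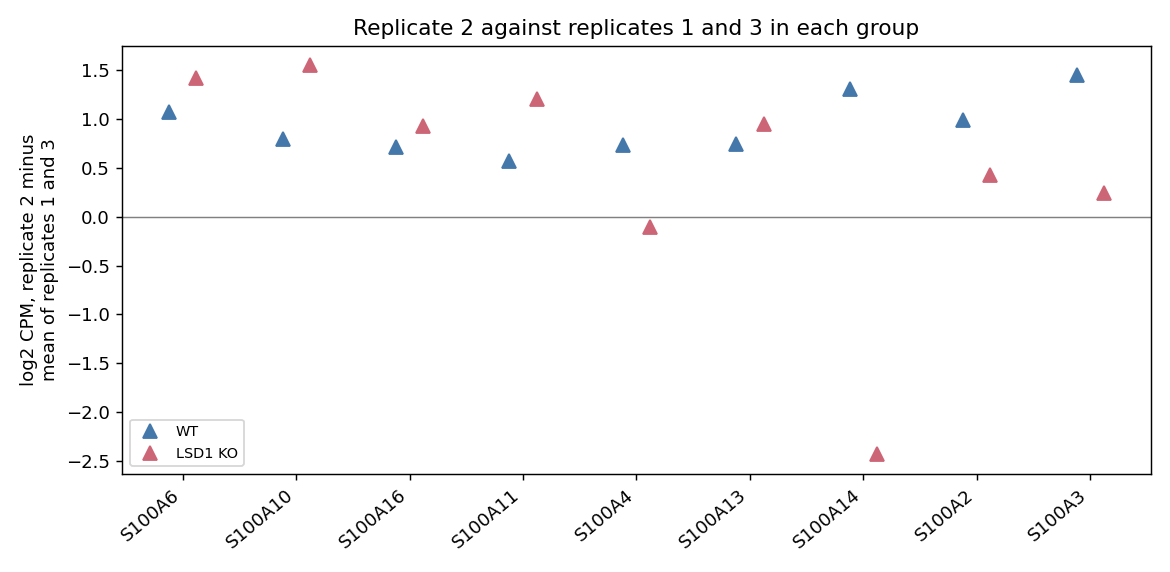
Log2 CPM of replicate 2 minus the mean of replicates 1 and 3, in WT (blue) and LSD1 KO (red), for 9 S100 genes. In WT the difference is above 0 for each gene, and in LSD1 KO it is below 0 for S100A4 and for S100A14, which is at -2.43.

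The spread over the 6 libraries was divided between group, replicate number and remainder, as shares of the sum of squares of log2 CPM. The replicate number held 95.3% of the spread of S100A16, 88.5% of that of S100A11, 87.7% of that of S100A6, 86.7% of that of S100A13 and 85.3% of that of S100A10. The median share over all genes tested was 69.0%, so large shares were common in these libraries. Group held 76.8% of the spread of S100A4 and 39.4% of that of S100A14, and no more than 11.8% of that of the other 7 genes. The median for group over all genes was 8.85%.

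**Figure D4:**
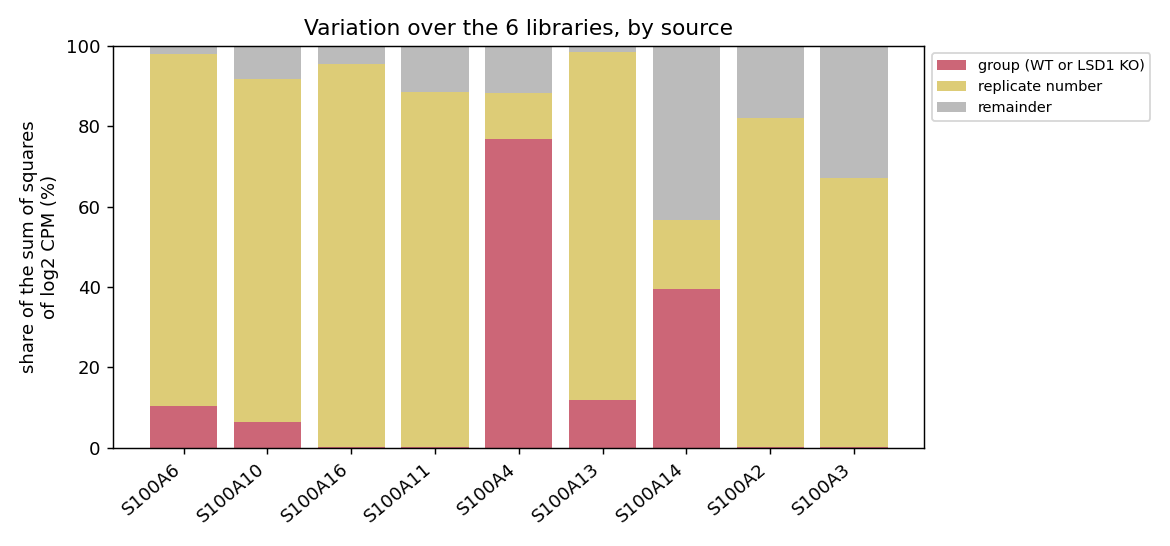
Share of the sum of squares of log2 CPM over the 6 libraries that lies between groups (red), between replicate numbers (yellow) and in the remainder (grey), in percent, for 9 S100 genes. Group is the largest share for S100A4 (76.8%), the remainder is the largest for S100A14 (43.3%), and the replicate number is the largest for each of the others.

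All 10 genes have short transcripts, from 434 to 1172 bases in their canonical form, against a median of 2855 bases over the genes tested. Since replicate 2 could differ with transcript length, its difference from replicates 1 and 3, averaged over both groups, was taken for all genes by length. The median was 0.22 for 1687 genes over 500 and up to 1000 bases, 0.25 for 3629 genes over 1000 and up to 2000 bases and -0.21 for 5751 genes over 4000 bases. In the class up to 500 bases it was -0.04 over 411 genes. S100A6 at 1.25, S100A10 at 1.17, S100A11 at 0.88, S100A13 at 0.85, S100A3 at 0.84, S100A16 at 0.82 and S100A2 at 0.71 were above the upper quartile of their class, which was 0.62 at most. The part of transcript length in the S100 values was not tested.

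**Figure D5:**
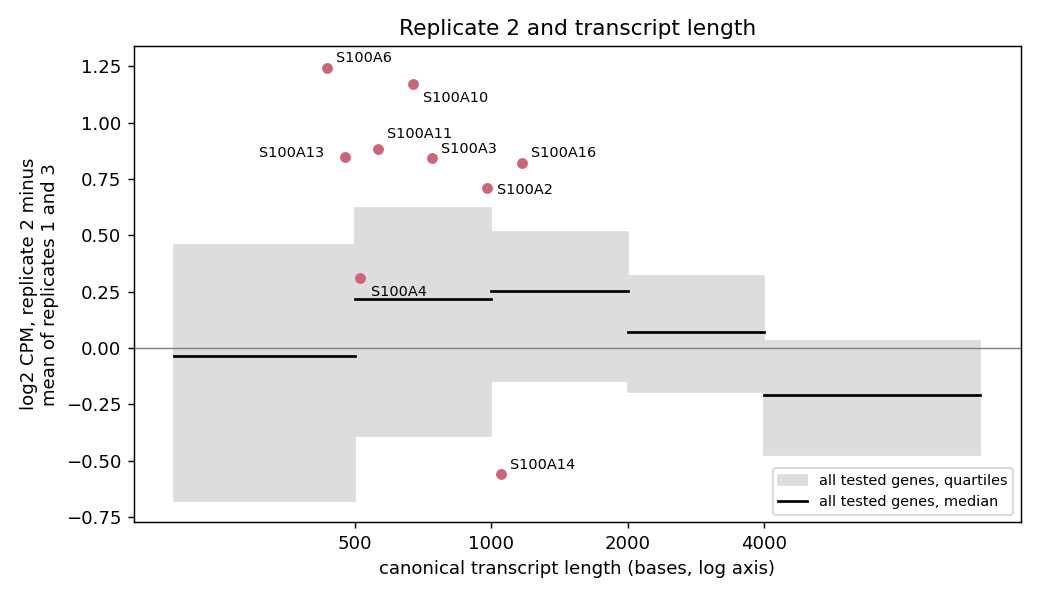
Log2 CPM of replicate 2 minus the mean of replicates 1 and 3, averaged over WT and LSD1 KO, against the length of the canonical transcript in bases (log axis), with grey bands for the quartiles and black lines for the medians of all tested genes in each length class. Of the S100 genes (red), 7 are above the bands, S100A4 is inside its band at 0.31 and S100A14 is below its band at -0.56.

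Across the 6 libraries, S100A6, S100A10, S100A11, S100A13 and S100A16 varied alike, with Pearson's r of log2 CPM from 0.73 to 0.96 over their 10 pairs of genes. All 6 points of each pair share their library and the replicate number, so r is given as a description. S100A4 had r of -0.16 with S100A10 and 0.42 with S100A6, and S100A14 had r of -0.46 with S100A4 and -0.50 with S100A13. Among 17661 tested genes outside the family, the one most like S100A6 over the 6 libraries was BNIP3 (r = 0.997), a mitochondrial protein known from hypoxia. It had 55.1, 90.4 and 63.3 CPM in WT and 62.1, 111 and 68.3 CPM in LSD1 KO. The genes most like the others were MYDGF for S100A16 (r = 0.9998), PHB2 for S100A2 (r = 0.998), SMIM10L2B for S100A11 (r = 0.998), TOMM40L for S100A13 (r = 0.996), NSMCE2 for S100A3 (r = 0.996), IRF5 for S100A10 (r = 0.996), CABLES1 for S100A14 (r = 0.994) and ARHGAP5-AS1 for S100A4 (r = 0.990). With 6 libraries and this many genes, values near 1 are found for each gene.

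The rest of the family was nearly silent. Of 18 other S100 and S100-fused genes, 8 had 0 counts in all libraries, among them S100A8, S100A9 and S100A12, which neutrophils and monocytes make, and 2 entered the fit. Of those below the fit, HRNR, a fused gene of the cornified skin, had at most 8 counts in a library and TCHH, a fused gene of the hair follicle, at most 9. The counts of S100A5 were 9, 20 and 25 in WT replicates 1, 2 and 3 and 33, 34 and 40 in LSD1 KO. Its groups did not overlap, which held for 7.74% of all genes tested. Its log2 fold change was 1.03 (standard error 0.44) without the replicate block (q value 0.999 from edgeR) and 1.08 with it (q value 0.282 from edgeR), and it was not called. S100A5 lies between S100A6 and S100A4, and along this stretch the log2 fold change was 0.48 for S100A6, 1.03 for S100A5, 0.98 for S100A4, -0.11 for S100A3 and -0.02 for S100A2. S100A1, which is read from the strand opposite to S100A13 and within its gene model, differed by -0.46 on the log2 scale (standard error 0.52, q value 0.999 from edgeR). S100A1 holds 7.89% of the 31-base sequences of S100A13 transcripts on the opposite strand, and the transcript model ENSG00000271853 holds 21% of them on the same strand, so the counts of S100A13 are less certain than those of S100A4.
The stretch between S100A10 and S100A13 also holds the epidermal differentiation complex, with the late cornified envelope genes, the SPRR genes, involucrin (IVL) and loricrin. Of the 54 genes there that RefSeq places by symbol and that are not S100 genes or S100-fused genes, 47 had 0 counts in all libraries and 53 had at most 3 in any library. The exception was LINC01527, with 39 counts over the 6 libraries, followed by LCE1E with 3, and 0 of the 54 entered the fit. Gene models of the table without a symbol were not counted here.

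Of 28 genes for partners, receptors and regulators of S100 proteins, 24 were tested. Between LSD1 KO and WT, edgeR called 0 of them without the replicate block (0.00566% of all genes) and 0 with it (1.60%), and 0 had an unadjusted p under 0.05 (3.12%), so the counts are near the shares over all genes. DESeq2's Wald test also called 0 (0.376%), and DESeq2 with the replicate block called EZR and PLAUR (4.21%). The median log2 fold change of the 24 genes was 0.02, from -0.24 for ANXA2 to 0.53 for PLAUR. The replicate number was called for 19 of the 24, against 41.2% of all genes.
EZR, ANXA2 and AHNAK had the highest mean CPM of the list, not corrected for transcript length, and the other partners given with values were picked after their values were seen, for their known tie to 1 of the S100 proteins. All 5 annexins were tested. ANXA2, the partner of S100A10, had 957, 1339 and 1033 CPM in WT and 905, 1025 and 892 CPM in LSD1 KO, and differed by -0.24 on the log2 scale (standard error 0.19, q value 0.999 from edgeR). Per kilobase, ANXA2 was at 3.78 ± 0.795 times the level of S100A10 in WT (SD, n = 3) and at 4.37 ± 2.08 times in LSD1 KO (SD, n = 3), and the ratio ranged from 2.12 in LSD1 KO replicate 2 to 6.22 in LSD1 KO replicate 1. ANXA1, the partner of S100A11, differed by 0.36 on the log2 scale (standard error 0.27, q value 0.999 from edgeR), and per kilobase it was at 2.37 ± 0.283 times the level of S100A11 in WT and 2.89 ± 0.351 times in LSD1 KO (SD, n = 3).
AHNAK, a large scaffold protein bound by the complex of S100A10 and annexin A2, had 1214, 523 and 1203 CPM in WT replicates 1, 2 and 3 and 1089, 758 and 1105 CPM in LSD1 KO. Its lowest library in each group was replicate 2, where S100A10 had its highest. The canonical transcript has 18761 bases for AHNAK and 671 for S100A10. The median replicate 2 difference was -0.21 for genes over 4000 bases and 0.22 for those over 500 and up to 1000 bases. The part of length in this contrast was not tested. EZR, the membrane-cytoskeleton linker ezrin and a partner of S100P, had a mean of 1609 ± 456 CPM in WT and 2027 ± 443 CPM in LSD1 KO (SD, n = 3), a log2 difference of 0.33 (standard error 0.27, q value 0.999 from edgeR). For MYH9, the myosin bound by S100A4, the log2 difference was -0.04 (standard error 0.22, q value 0.999 from edgeR). Of the plasminogen system, for which S100A10 is a surface receptor, PLAU, PLAUR and PLAT were among those tested, and PLAUR, the urokinase receptor, had 58.4, 92.1 and 76.2 CPM in WT and 78.9, 170.0 and 77.9 CPM in LSD1 KO, with the highest value of each group in replicate 2. The receptor AGER was read at 2.80 to 5.94 CPM, and TLR4 had 0 counts in all libraries. Of the regulators, CTNNB1, TCF7L2 and MDM2 had log2 fold changes from -0.10 to 0.12, TP63 was too low for the fit, and LEF1 had 0 counts in all libraries.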

How the data were processed

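RNA-seq libraries of 3 WT and 3 LSD1 KO HCT116 samples were analysed from 1 deposited table of 60240 genes. The authors trimmed read pairs with Trimmomatic 0.39, quantified them with Salmon 1.4.0 against a GENCODE transcriptome of GRCh38 and deposited expected counts per gene rounded to whole numbers, with no scaling for library size. The step from transcripts to genes is not given in the sources used here. Salmon divides reads shared by similar transcripts by estimation, which bears on S100A13 and S100A11. The members and all gene lists were chosen with earlier results of these data known.

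Counts were scaled with TMM factors, genes with low counts were removed with filterByExpr, and 17672 genes were tested with the quasi-likelihood test of edgeR 4.0.16 (R 4.3.3), with Benjamini-Hochberg adjustment over all of them and calls at a q value under 0.1. P-values measure only the spread between these libraries, which may be technical. Total counts were 25379279 to 29186963 per library, and the floor of 3 counts covers counting error only. The replicate number was tested with 2 degrees of freedom beside group. Log2 CPM used a prior count of 2. Levels per kilobase used the canonical GENCODE transcript, and sequences and positions came from RefSeq (GRCh38.p14), matched by symbol for all 10 members. DESeq2 1.42.0, other scalings and filters, the replicate block and leaving out each library (without the block) were the alternatives.

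Samples with the same replicate number were paired for the block because their deviations from the group means correlated in each pair (r = 0.553, 0.553 and 0.404 over 17672 genes), while differently numbered samples had r from -0.516 to 0.0454. The labels do not say what a number shares. Named genes were all 10 members, KDM1A, the genes of each other list called with or without the block plus up to 3 with the highest mean level (fewer where the rest were at or near 0 counts), and for each member the most similar tested gene. Genes named beyond this rule were chosen after their values were seen. Some genes of the partner list are counted in its totals but not reported here by name.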

Additional observations from a re-analysis of the deposited data

How the results depend on the processing

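The log2 fold changes of the 9 S100 genes tested were recomputed under 14 alternatives each. Of the 126 values, 125 moved by less than 1 SD between replicates, and the exception was S100A3, at 0.58 without WT replicate 2. This SD was taken within groups on the log2 scale, so it includes the differences by replicate number. It was 0.745 for S100A10, which went from -0.18 to -0.91 without LSD1 KO replicate 2. For S100A14 it was 1.28, so the count of values that moved says little about stability. S100A4 stayed between 0.80 and 1.28 and S100A14 between -2.33 and -0.47, and neither changed sign. S100A2 and S100A3 changed sign under 5 alternatives each, and S100A10, S100A11 and S100A16 under 3 each. S100A6 and S100A13 changed sign under 1 each, the fit without LSD1 KO replicate 2, which had no replicate block. Levels without TMM factors moved by less than 1 SD for 10 of 10 genes, with S100P at or under the floor. The factors were 0.949 to 1.044, so only small moves were possible.

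The count of genes called between LSD1 KO and WT was 1 in the edgeR test without the replicate block. It was 114 with no filter on low counts, 95 with the DESeq2 Wald test, 282 with the replicate block, 597 with DESeq2 and the replicate block, and 1055 with the replicate block and without both replicate 2 libraries. Leaving out 1 library at a time gave 1 to 26 genes, with 26 without LSD1 KO replicate 2. Of the partner genes, 2 were called with DESeq2 and the replicate block, and 1 (EZR) with the replicate block and without both replicate 2 libraries. The replicate number test called 7273 genes, and 4740 without both replicate 2 libraries, a setting chosen after seeing the data that has fewer libraries. For the other counts, the cause of the change was not tested. Depth limits S100P, S100A1, S100A5 and S100A3, with at most 3, 23, 40 and 64 counts in a library.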
